A study of Mus musculus with 2 samples.

Results

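The regions described here are 394 stretches of mouse autosome, each 1 Mb long, that held an unusually large number of CTCF binding sites in newborn stomach. Both libraries were CTCF ChIP-seq on stomach tissue of the mouse strain B6NCrl at postnatal day 0. The labels give no treatment, and the series holds no other genotype, age or condition. The labels number them as biological replicates 1 and 2 but give both the same donor and the same tissue sample, so differences between them may be technical. Peaks were taken from the optimal list, the authors' set of peaks that passed a test of reproducibility between the replicates (IDR, the irreproducible discovery rate). Autosomes of mm10 were cut into 1 Mb bins from their first base, and 2376 bins had at least 0.9 Mb of sequence that is not an assembly gap. The 394 bins were chosen by their own peak count: 55 or more peak summits in the optimal list. They made up 16.6% of the 2376 bins and are called rich bins below. They held 29499 of the 71890 summits of these bins, which is 41.0%. Because the count chose them, peak number and every other measure of the same peaks are given as descriptions, with no test, and bins are not replicates of a condition. Peak lists hold no expression values, so the tissue label could not be checked against marker genes.

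CTCF is a zinc-finger protein that reads a long DNA motif and, together with the ring-shaped cohesin complex, anchors chromatin loops and marks many boundaries between chromosomal domains. It also binds at promoters and at insulators, including the imprinting control region between Igf2 and H19. Mammalian chromosomes alternate between GC-rich, gene-dense stretches and AT-rich, gene-poor ones. In the mouse, short interspersed repeats of the B2 family carry a CTCF-like motif and have spread it to many places in the genome.

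A short form of the CTCF motif was searched on both strands, with the letters CCNNNAGNNGGC, in which N is any base. It lay within 50 bp of 42.3% of the summits in rich bins (12476 of 29499) and in 2.19% of windows of the same length 1 kb away. The 5 windows that follow are shown because they mark the strongest peak with these letters in each of the 5 bins with most summits, passing over windows that touch an untranslated region or hold the letters outside their 61 bases. Each is 61 bases of mm10 centred on the summit, named by the nearest coding gene and read on the strand of the motif, whose letters are in capitals. A match is a description of the letters, not proof of a binding site.
Clptm1, chr7:19669041-19669101, plus strand: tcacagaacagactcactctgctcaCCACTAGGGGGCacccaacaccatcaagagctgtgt
Gng7, chr10:80995387-80995447, minus strand: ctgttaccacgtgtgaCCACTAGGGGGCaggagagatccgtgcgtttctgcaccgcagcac
Fxr2, chr11:69628461-69628521, plus strand: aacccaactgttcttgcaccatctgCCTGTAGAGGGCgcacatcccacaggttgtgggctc
G430095P16Rik, chr8:84737702-84737762, minus strand: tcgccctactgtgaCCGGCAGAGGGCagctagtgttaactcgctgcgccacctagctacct
Cyth2, chr7:45801522-45801582, minus strand: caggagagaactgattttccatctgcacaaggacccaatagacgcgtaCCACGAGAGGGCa

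Peaks at promoters held those letters less often, in 1906 of 6826 (27.9%) of the rich-bin summits within 1 kb of a coding start against 46.6% of all other summits there. The next 3 windows show the strongest promoter peak without the full letters in each of the 3 bins with most summits, again outside untranslated regions and written on the plus strand. Capitals mark the last part of the motif, AGNNGGC, on either strand. That piece overlaps the full motif, lay in 59.0% of 61-base windows at rich-bin summits and in 13.5% of windows 1 kb away. Among promoter summits without the full letters it lay in 33.5%.
Pvr, chr7:19910866-19910926, plus strand: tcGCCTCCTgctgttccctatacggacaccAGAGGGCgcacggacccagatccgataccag
Cirbp, chr10:80165187-80165247, plus strand: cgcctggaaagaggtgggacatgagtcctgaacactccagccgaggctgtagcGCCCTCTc
9130213A22Rik, chr11:69122773-69122833, plus strand: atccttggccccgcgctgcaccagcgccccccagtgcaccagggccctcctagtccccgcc
The window at Pvr, a cell-adhesion receptor of the nectin group, held the piece in 2 places. Its summit was in an intron, 32 bp from a transcript start inside the gene and not at the gene's own start. The window at Cirbp, which encodes a cold-inducible RNA-binding protein, held it once, and the window at 9130213A22Rik held it nowhere, with a signal of 278.

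Rich bins carried from 55 to 139 summits, with a median of 70 and quartiles of 62 and 84.8. The other 1982 bins carried 0 to 54, with a median of 19, and 49 of them had no summit at all. The cut fell inside a continuous distribution. The 8 bins with exactly 55 summits had a median of 18.5 coding genes, a GC content of 45.1% and a median signal of 73.3, and the 19 bins with 54, just outside, had 15.0 coding genes, 44.6% and 79.8. Cut into 10 equal pieces, 342 of the 394 rich bins had a summit in each piece, and no rich bin had summits in fewer than 7. With 55 or more summits a bin, most pieces fill under many arrangements, so this does not show even spacing. Neighbouring summits in a rich bin were a median of 7518 bp apart, against 16701 bp in the other bins, a difference that follows from the count. Of these distances, 9.02% were under 1 kb in rich bins and 5.76% in the others. The longest stretch between summits inside a rich bin was 260874 bp.

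Each replicate alone gave nearly the same map. For this, the strongest peaks of each replicate were taken, as many as the optimal list holds, and counted in the same bins. Rich bins then held 45 to 141 peaks in replicate 1 (median 71) and 48 to 136 in replicate 2 (median 70.0). The counts reached 55 in replicate 1 in 379 of the 394 bins, in replicate 2 in 372, in both in 366, and in neither in 9. Of the 1982 other bins, 21 reached 55 in replicate 1, 20 in replicate 2 and 7 in both. Across all 2376 bins the rank correlation between the replicates' counts was 0.994, and over the 394 rich bins it was 0.946. The replicate lists entered the optimal list, so these counts are not independent of the choice of bins. Of the rich-bin peaks, 82.5% had a summit within 100 bp in both of those replicate lists, against 83.5% of the peaks in the other bins.

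**Figure D1:**
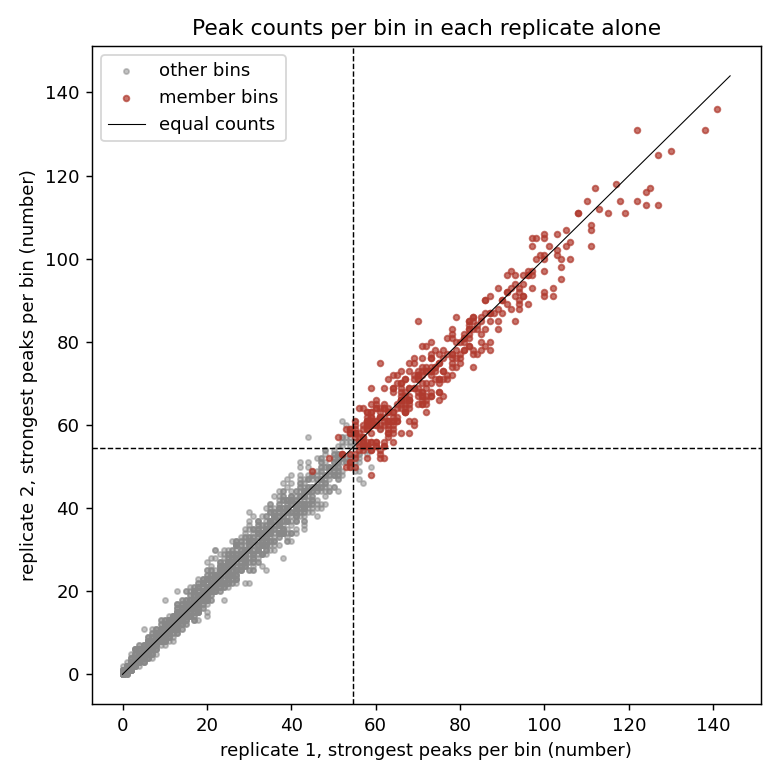
Number of strongest peaks per 1 Mb bin in replicate 1 (horizontal axis) and replicate 2 (vertical axis), 1 point per bin. Rich (member) bins are red, other bins grey, dashed lines mark 55 peaks and the solid line marks equal counts. The 366 rich bins at or above 55 in both replicates lie in the upper right area, and those that miss in a replicate lie close to the dashed lines.

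Rich bins were gene-dense. They held 8371 of the 20523 autosomal coding genes of the eligible bins, or 40.8%. A rich bin had a median of 19 coding genes (quartiles 12 and 26, range 3 to 67), counted by gene start in the GENCODE M21 annotation, against 4 (quartiles 1 and 8, range 0 to 59) elsewhere. No rich bin lacked a coding gene, while 276 of the others did. Pooled over all gene numbers, there were 3.52 summits per coding gene in rich bins and 3.49 in the others, but at like gene numbers the rich bins had more, as given next. Genes in rich bins were shorter, with a median length of 14.9 kb against 21 kb.

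Rich bins were found over a wide range of gene numbers. Of the bins with 3 to 10 coding genes, 7.18% were rich, and the share was 39.5% at 11 to 20 genes, 59.6% at 21 to 30 and 68.2% at 31 to 67. No bin with 2 or fewer coding genes was rich, among 758. Within the rich bins, the 68 with 3 to 10 coding genes carried a median of 62.5 summits, and the 75 with 31 or more carried 94.0. Summits per coding gene were 8.61 in rich bins and 4.65 in other bins at 3 to 10 coding genes. They were 4.56 and 2.44 at 11 to 20, 2.99 and 1.09 at 21 to 30, and 2.22 and 0.571 at 31 or more. The cut at 55 summits largely set these differences. Over all bins the rank correlation of summit number was 0.735 with coding genes, 0.903 with GC content and 0.918 with the number of motif letters in the DNA. Over the rich bins alone these were 0.461, 0.595 and 0.714. Gene number, GC and motif letters vary together along chromosomes, and the 394 values were cut at 55, so these correlations describe the bins only.

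**Figure D2:**
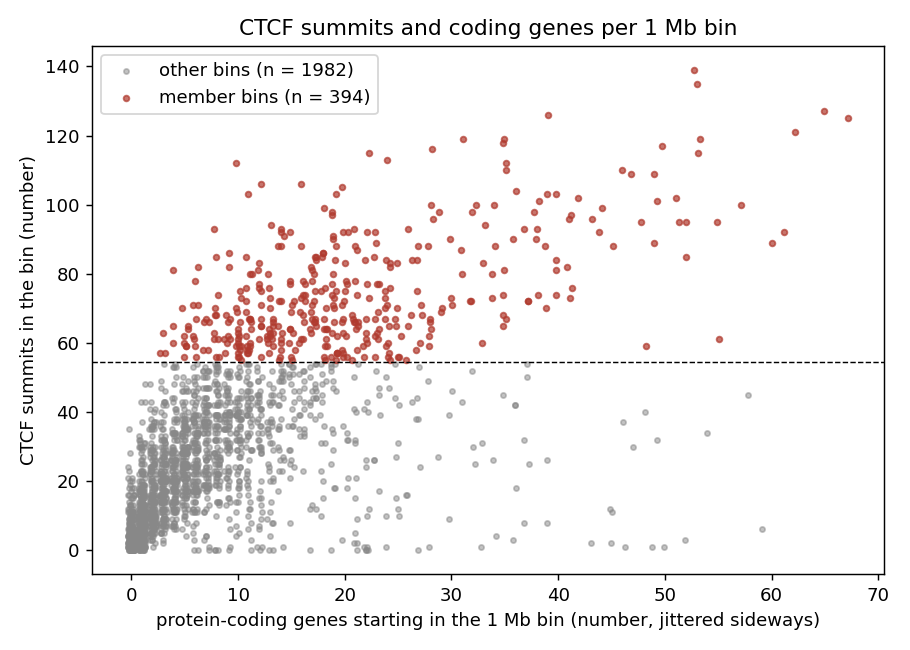
CTCF summits per 1 Mb bin (vertical axis, number) against protein-coding genes per bin (horizontal axis, number, points jittered sideways), with rich (member) bins in red above the dashed line at 55 summits and other bins in grey. Rich bins span 3 to 67 coding genes, and a set of grey points with many genes but few summits lies along the bottom.

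The richest bin was chr7:19000001-20000000, with 139 summits in the optimal list and 141 and 136 peaks in replicates 1 and 2. It has 53 coding genes, among them Apoe, the lipid-carrier apolipoprotein E, whose start lay 22 bp from a summit of signal 131. Signal here is the authors' enrichment value for a peak in the optimal list, in the deposited units. Other starts close to a summit in this bin were those of Clasrp, a splicing regulator, at 12 bp, Trappc6a, a vesicle-tethering subunit, at 15 bp, and Gpr4, a proton-sensing receptor, at 33 bp. Its median signal, 116, was above that of all rich-bin peaks together, 75.6.

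The next bin, chr10:80000001-81000000, had 135 summits (138 and 131 in the replicates) among 53 coding genes and the highest GC content of the 394, 53.7%. Summits lay within 13 bp of the starts of Ndufs7 and Atp5d, subunits of mitochondrial complex I and ATP synthase, and of Lmnb2, which encodes lamin B2. Next was chr11:69000001-70000000, with 127 summits (130 and 126) and 65 coding genes, including the clock gene Per1 with a summit 12 bp from its start and the translation factor gene Eif5a at 8 bp. The peak at Eif5a had a signal of only 7.88, against 142 for the peak 28 bp from the start of the tyrosine kinase gene Tnk1 in the same bin.

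Then came chr8:84000001-85000000, with 126 summits (127 and 113) and 39 coding genes, and chr7:45000001-46000000, with 125 (127 and 125) and 67. The latter has the most coding genes of any rich bin, and 58 of its 125 summits lay at coding promoters. One of them, 18 bp from the start of Kdelr1, a receptor that returns proteins to the endoplasmic reticulum, had a signal of 469. The sixth, chr17:35000001-36000000, had 121 summits (122 and 131) and 62 coding genes, 7 of them H2 class I histocompatibility genes. Summits there lay near the starts of Flot1, a lipid-raft protein gene, at 8 bp (signal 20.8), of Tubb5, a tubulin gene, at 11 bp (22.4), and of Mrps18b, a mitochondrial ribosomal protein gene, at 17 bp (289).

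The remaining 4 of the top 10 had 118 or 119 summits. In chr2:30000001-31000000 a summit sat on the start of Pkn3, a protein kinase gene, and another 1 bp from that of Lrrc8a, a subunit of volume-regulated anion channels. In chr11:98000001-99000000 summits lay 20 bp from the start of Rara, a retinoic acid receptor gene (signal 24.1), and 18 bp from that of Casc3, an exon junction complex gene (150). In chr15:76000001-77000000, 58 of 119 summits (48.7%) were at coding promoters, including those of Scrib, a cell-polarity gene, and Puf60, a splicing factor gene. In chr2:32000001-33000000 lay the strongest peak of any rich bin, with a signal of 677, in an intron 1709 bp from the start of Fam129b; it was also strong in each replicate alone, at 363 and 318. The strongest peaks of the other 9 bins had signals from 481 to 600. Motif letters were found at 9 of these 10 peaks, and Cirbp, printed above, was the exception. Of the 10, 3 lay within 1 kb of a coding start.

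Some rich bins had very few coding genes. The fewest was 3, in chr1:89000001-90000000, chr5:111000001-112000000 and chr17:49000001-50000000, with 57, 63 and 57 summits. Other bins with 3 coding genes, 161 in all, had a median of 19 summits and a GC content of 40.8%, while these 3 had 47.6%, 49.2% and 45.9%. Their summits were mostly not at promoters: 3 of 57, 3 of 63 and 2 of 57. In the first, 37 of the 57 lay in introns, and its genes are Agap1, an Arf GTPase-activating protein gene, Sh3bp4 and the homeobox gene Gbx2. In the second, 39 of 63 were intergenic, around Mn1 and Pitpnb. With 4 coding genes each, chr9:60000001-61000000 had 65 summits, 50 of them in introns, in a bin that holds Thsd4, Lrrc49, Larp6 and Uaca, and chr5:148000001-149000000 had 81.

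That last bin, with Slc7a1, a cationic amino acid transporter gene, Katnal1, a microtubule-severing protein gene, and Ubl3, had the highest share of summits with motif letters of all 394, at 66.7% (54 of 81). The next highest shares were in bins close to it, chr5:147000001-148000000 with 64.9% (50 of 77) and chr5:150000001-151000000 with 63.5% (47 of 74), while chr5:149000001-150000000 between them had 47.3% (44 of 93). These bins were singled out after their values were seen. They are neither the most GC-rich, at 43.4% to 46.3%, nor the strongest in signal, with medians of 53.5 to 66.5. B2-type letters, defined next, made up 11, 7 and 7 of the matching summits of those 3 bins. So most of their motif matches were of other forms.

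B2-type letters are the CCAGAAGNGGGCAT form of the motif, a special case of CCNNNAGNNGGC with the spelling known from B2 repeats. Both strands were searched. In rich bins the form occurred 35.0 times per Mb of DNA, against 9.69 in the other bins, and 99.8% of the copies in rich bins lay in sequence that the reference marks as repeats. Motif letters of all other forms occurred 183 times per Mb against 82.3. DNA letters were not used in choosing the bins. The strongest B2-type peak in each of those 3 chromosome 5 bins is printed, on the plus strand with the 14 letters in capitals, to show the sequence that the copies share.
Slc7a1, chr5:148370801-148370861: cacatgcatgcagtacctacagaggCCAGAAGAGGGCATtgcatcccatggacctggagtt
Mtus2, chr5:147960947-147961007: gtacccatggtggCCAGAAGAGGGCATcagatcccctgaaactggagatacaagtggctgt
Fry, chr5:150114158-150114218: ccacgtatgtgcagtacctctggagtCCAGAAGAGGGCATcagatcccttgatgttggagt

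B2-type letters lay within 50 bp of 1792 of the 29499 rich-bin summits, or 6.07% (exact 95% binomial interval 5.80 to 6.35, counting error only), and of 4.60% (4.40 to 4.80) of the summits in other bins. Windows 1 kb away held them in 0.336% and 0.144%. Peaks with this form were weak: their median signal was 46.8 in rich bins and 43.2 elsewhere, while peaks with any other form of the motif letters had medians of 141 and 136. Counted against the DNA, there were 13 B2-type summits per 100 B2-type copies in rich bins and 10.2 in the others. For all motif letters there were 14.6 and 8.84 summits per 100 copies. The summits in these ratios are the ones that chose the bins.

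The share of rich-bin summits with motif letters, 42.3% (41.7 to 42.9), was above the 38.0% (37.5 to 38.4) of the other bins. Windows 1 kb away held the letters in 2.19% and 1.45%. The gap depended on how the motif was scored. A position weight matrix, a table of base frequencies, was built from 500 strong chromosome 1 peaks with the letters, outside the rich bins. It was set so that 1% of all windows 1 kb away passed. Those that passed were 1.25% of the windows near rich-bin summits and 0.826% of those near the others. With the matrix the shares of summits were 51.4% and 50.9%. The 500 peaks that built the matrix were counted again among the summits of the other bins, which can raise the 50.9%. The matrix therefore does not settle how large the gap is.

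Rich-bin summits were more often inside exons than summits elsewhere, in bins whose DNA also holds more exon. Of the rich-bin summits, 49.1% were in introns, 34.6% intergenic, 6.72% in untranslated regions, 5.07% in coding exons and 4.51% in noncoding exons. In the other bins these shares were 47.5%, 41.5%, 4.45%, 2.70% and 3.85%. The DNA itself was 33.5% intergenic in rich bins and 55.1% in the others, so intergenic summits were about as frequent as intergenic sequence in rich bins and less frequent than it elsewhere. Coding exons took up 3.56% of rich-bin sequence and 1.02% of the rest, untranslated regions 3.43% and 1.26%, and noncoding exons 3.41% and 1.75%. Relative to these shares of sequence, the excess of summits in each kind of exon was smaller in rich bins than elsewhere. Introns took up 56.1% of rich-bin sequence and 40.8% of the rest. They held a smaller share of summits than of sequence in rich bins and a larger one elsewhere.

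Coding promoters, taken as 1 kb to either side of the start of any transcript of a coding gene, held 23.1% of rich-bin summits (6826 of 29499, 22.7 to 23.6) and 14.9% of the others (14.5 to 15.2). The share was higher in rich than in other bins on each of the 19 autosomes. Bins varied widely, from 1.49% to 78.7%, with a median of 20.9%. Lowest was chr13:56000001-57000000, where 1 of 67 summits was at a coding promoter, in a bin with 13 coding genes that include Smad5, a mediator of BMP signalling. Highest was chr18:37000001-38000000, where 48 of 61 summits were at coding promoters, in the beta and gamma protocadherin clusters. This bin also had the lowest share of summits with motif letters, 14.8% (9 of 61), and the second lowest GC content, 41.9%. No B2-type letters lay at its summits.

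Of the coding genes in rich bins, 58.3% (4879 of 8371, 57.2 to 59.3) had a summit within 1 kb of the start of any of their transcripts. In the other bins the share was 39.5% (38.7 to 40.4). Many genes of the other bins are olfactory or vomeronasal receptors. Without these receptors the shares were 58.7% and 44.5%.

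Median signal over all peaks was close in rich and other bins. The median over rich-bin peaks was 75.6 (quartiles 34.6 and 238), and over the peaks of the other bins it was 76.8 (35.0 and 228), a ratio of 0.984. With the peaks at or above the list's median signal only, and bins of 28 or more of them, the ratio was 1.06. In the replicates' own values the medians were 45.7 in rich against 45.6 in other bins for replicate 1, and 32.5 against 33.5 for replicate 2. Weak and strong peaks were both present: the 20% of optimal peaks with the lowest signal took 20.4% of the rich-bin peaks. At the top end, 400 rich-bin peaks (1.36%, 1.23 to 1.49) had a signal of 500 or more, against 285 (0.672%, 0.597 to 0.755) in the others. Promoter peaks were weaker than the rest in both kinds of bin, with medians of 61.9 against 80.8 in rich bins and 57.8 against 82.3 elsewhere.

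Median signal by bin ran from 35.0 to 193 over the rich bins. At the low end was chr1:59000001-60000000, with 66 summits around Fzd7, a Wnt receptor gene, and Bmpr2, a BMP receptor gene. The highest 2 values, both 193, belonged to chr19:10000001-11000000, with 83 summits, and to chr7:142000001-143000000, with 71. The latter holds Igf2, a growth factor gene, and H19, and its promoter share was 12.7%. Next came chr19:45000001-46000000, at 190, and chr14:54000001-55000000, at 145, which holds T cell receptor gene segments and has the most genes of any kind among the rich bins, 126.

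To set gene number aside, each rich bin was compared with the median of the other bins that have exactly the same number of coding genes. This was possible for 363 of the 394, with a median of 14 such bins each. The 31 without a counterpart had 38 to 67 coding genes. GC content was higher in the rich bin in 356 of 363 cases, with medians of 46.8% and 42.8% and a median difference of 4.13 percentage points. Motif letters were denser in 358, at 212 against 131 per Mb, and B2-type letters in 321, at 32.0 against 16.0 per Mb. Repeats of all kinds covered less of the rich bin in 322, with a median difference of -7.11 percentage points, which turned to 0.715 with GC held as well (higher in 119 of 210 and lower in 91). Genes of any kind were as many, with a median difference of 0.0. The share of summits with motif letters was higher in 242 and lower in 120, with a median difference of 4.16 percentage points. With GC held as well that difference was 1.15 (higher in 109 and lower in 100).

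The promoter share of summits was not shifted in the same way. It was higher in the rich bin in 179 cases and lower in 184, and the median difference was -0.0922 percentage points. Its sign depended on the setting: over the alternatives tried it ran from -1.76, with receptor genes left out of the gene count, to 2.12, with genes of any kind counted. With gene number equal, rich bins had more summits both at promoters (median 14.0 against 6.0) and away from them (55 against 27.5). The cut at 55 summits fixed the higher total in advance, so this is no separate result. Coding genes with a promoter summit made up a median of 60% in the rich bin against 34.8%, higher in 328 of 363. With receptors left out of the gene number used for matching, it was 60.4% against 41.7%, higher in 286 of 334. These shares count the same summits that chose the bins. Median signal was lower in the rich bin in 231 cases and higher in 132, with medians of 74.8 and 80.1 and a median ratio of 0.885. Among only the stronger part of the peaks, those at or above the median signal of the optimal list, the ratio turned to 1.04 (bins with 28 or more such summits).

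**Figure D3:**
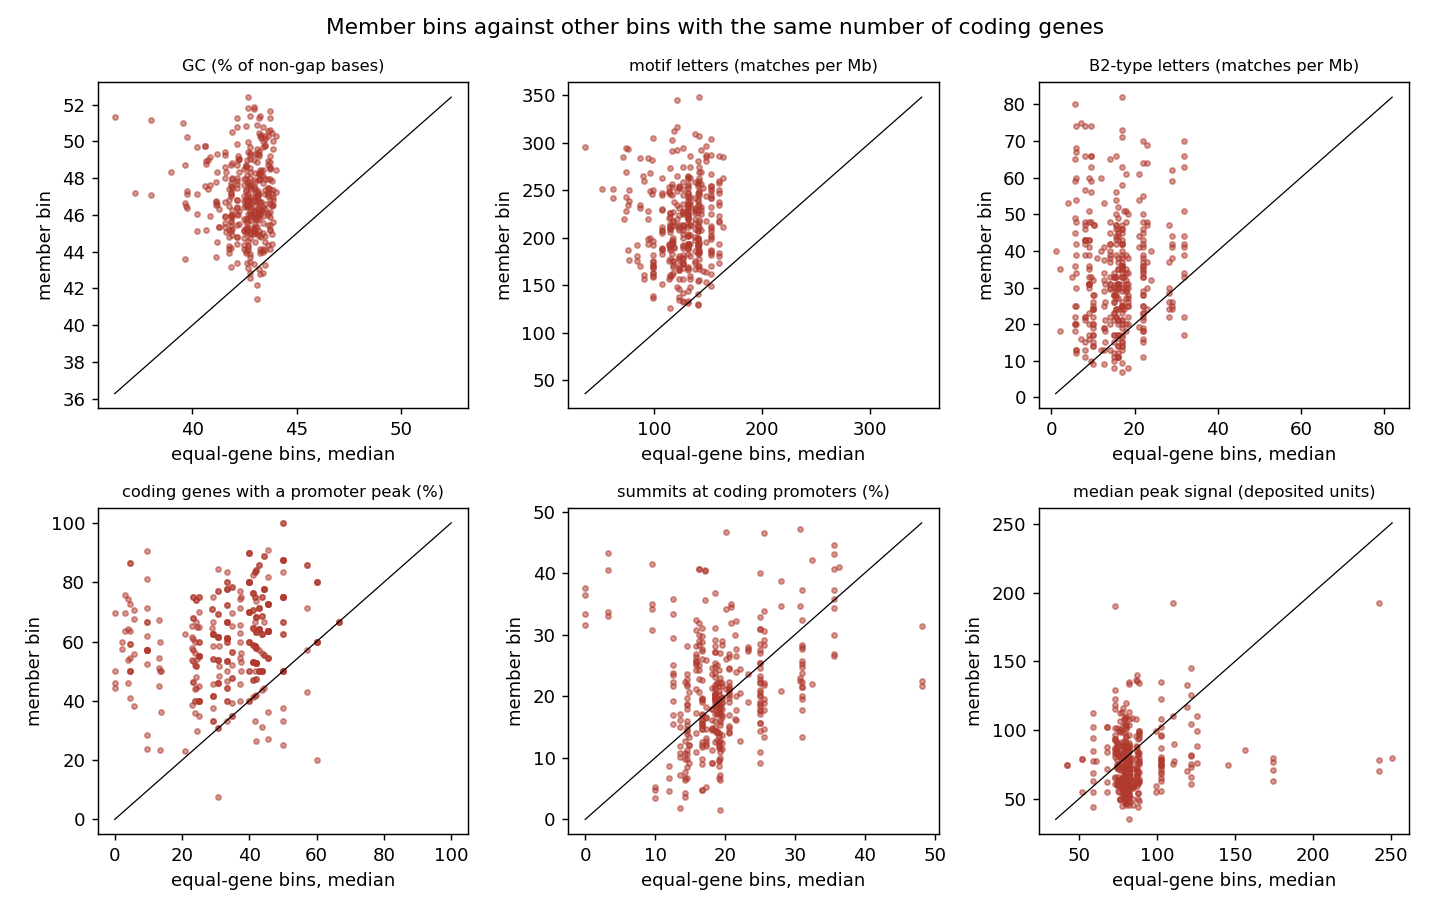
Each rich bin (vertical axis) against the median of other bins with the same number of coding genes (horizontal axis), for 6 measures: GC content in percent, motif letters and B2-type letters in matches per Mb, coding genes with a promoter peak in percent, summits at coding promoters in percent and median peak signal in deposited units. The line marks equal values. Points lie above it for GC in 356 of 363 bins and for motif letters in 358, on both sides of it for promoter share, and below it for signal in 231.

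With GC held within 1 percentage point as well, 210 rich bins kept a counterpart, with a median of 3 each. Motif letters were then denser in the rich bin in 179 of 210, at 193 against 167 per Mb, and B2-type letters in 153, at 31 against 19. Promoter share differed by a median of 0.71 percentage points, higher in 111 and lower in 98. The share of coding genes with a promoter summit stayed higher in 151, with a median difference of 15.4 percentage points. Signal was lower in 149, with a median difference of -12.7.

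Some gene-dense bins were far from rich. The 5 other bins with most coding genes had 50 to 59 of them and 1 to 45 summits. In chr7:103000001-104000000, 52 of 59 coding genes are olfactory receptors, beside the beta-globin genes, and there were 6 summits (6 and 7 in the replicates). Olfactory receptors also fill chr10:129000001-130000000, with 51 of 52 genes and 3 summits, and chr2:86000001-87000000, with 49 of 50 and 1 summit. Their GC content was 36.3% to 38.1% and their motif letters 36 to 63 per Mb, below the lowest rich bins, 41.4% and 126. The other 2 were closer to the cut. In chr11:99000001-100000000, full of keratin and keratin-associated protein genes of skin and hair, there were 45 summits among 58 coding genes. In chr13:23000001-24000000, with 31 histone genes of the Hist1 cluster, there were 34 among 54, of which 12 lay at coding promoters. Among the 35 other bins with more than 30 coding genes, receptors were the majority in 18. That held in 0 of the 75 rich bins of that size.

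Gene families differed in how many of their members lie in rich bins. They were counted by gene start and are read against the 40.8% of all coding genes in rich bins. Counts of genes with a promoter summit are read against the 58.3% of all coding genes in rich bins and the 39.5% elsewhere. Genes of a cluster share a bin, so they are not separate observations. Clustered protocadherins, the neuronal cell-surface proteins that give cells their identity, were all in rich bins, 57 of 57 in 2 adjacent bins, and 51 had a promoter summit. Keratins, the filament proteins of epithelia, had 41 of 53 genes in rich bins (77.4%), but in only 3 bins, and 7 of the 53 had a promoter summit. Ly6 genes had 12 of 17 (70.6%) in 2 bins.

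Families spread over many places give a broader count. Cytosolic ribosomal protein genes had 56 of 95 (58.9%) in 49 rich bins. Of those 56, 34 had a promoter summit, a share close to that of all coding genes in rich bins. Mitochondrial ribosomal protein genes had 43 of 77 (55.8%) in 40 bins, Rab GTPases of vesicle traffic 37 of 65 (56.9%) in 36 bins, and proteasome subunits 27 of 49 (55.1%) in 23 bins. Wnt ligand genes had 14 of 19 (73.7%) in 10 bins, and solute carriers 176 of 357 (49.3%) in 124. Zinc finger genes with a Zfp symbol stood at 35.2% (140 of 398), and Sox factors at 27.8% (5 of 18).

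At the low end were the receptor families of smell: 57 of 1120 olfactory receptors (5.09%) and 8 of 323 vomeronasal receptors (2.48%). None of the 36 late cornified envelope and Sprr genes of the epidermis was in a rich bin, and serpins had 5 of 60 (8.33%). Grouping symbols by their letters before the first digit gave 112 families of 20 or more genes, of which 6 had no gene in a rich bin. These were Defa (22 genes), Lce (21), Prl (25), Serpina (23), Serpinb (26) and Ugt (22). The 5 highest were Pcdhb, Krt, Pla, S and Rpl, from 100% to 64.7%.

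**Figure D4:**
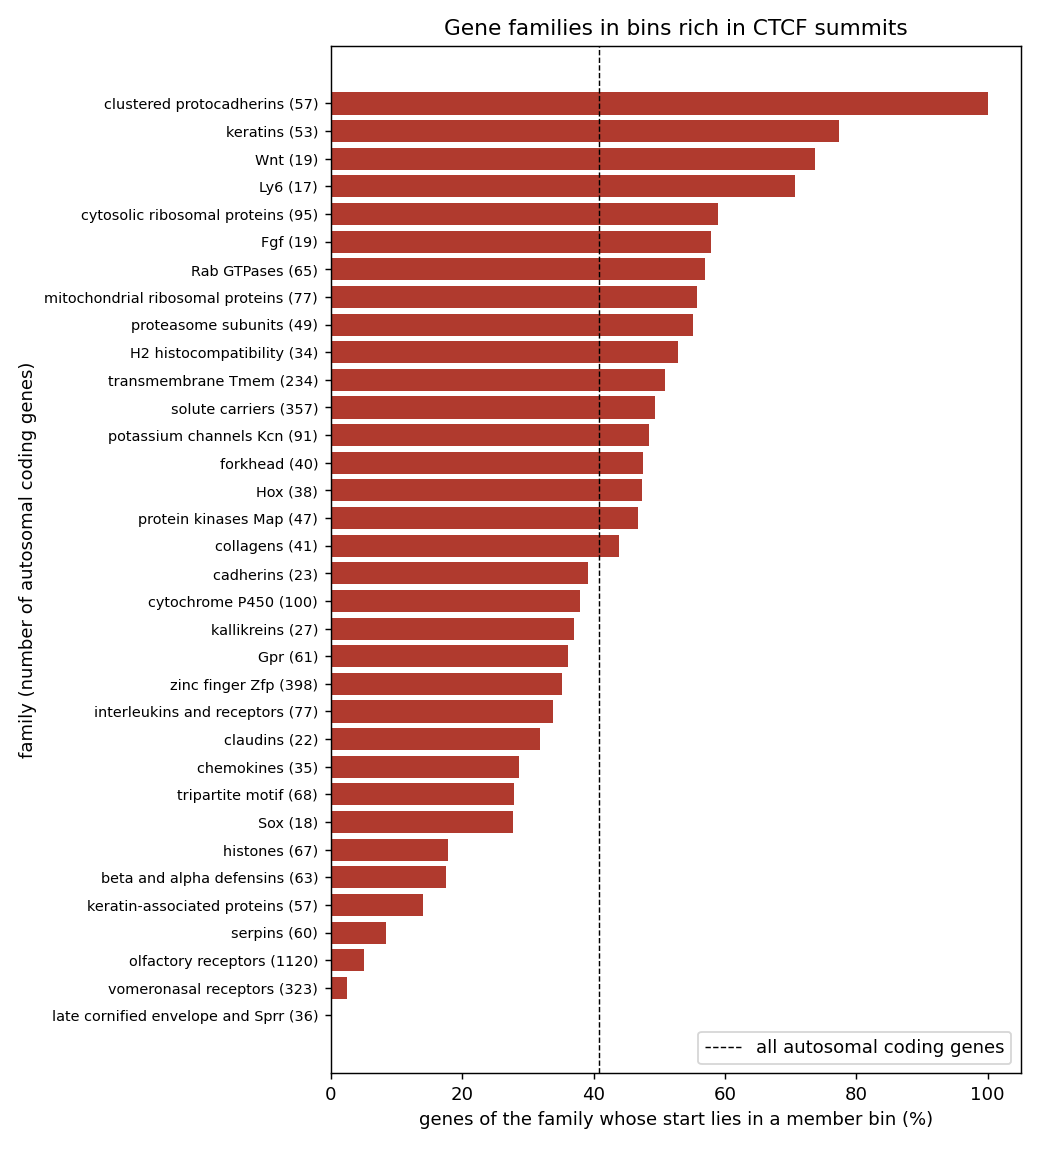
Share of each gene family's autosomal coding genes whose start lies in a rich (member) bin, in percent, with the number of genes in brackets. The dashed line marks the share of all autosomal coding genes, 40.8%. Bars run from 100% for the clustered protocadherins to 0.0% for the late cornified envelope and Sprr genes.

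Lists of stomach genes showed the same spread and are read against that 40.8%. Of 39 genes of the glandular stomach epithelium, 24 (61.5%) lay in 18 rich bins. They include the mucus protein genes Muc5ac and Muc6 in a bin with 84 summits, the proton pump subunit genes Atp4a (89) and Atp4b (65), the pepsinogen gene Pgc (105), the gastrin gene Gast (96) and the gastrokines Gkn1, Gkn2 and Gkn3 (56). Of the transcription factor genes on this list, Hnf4a (64), Spdef (103) and Bhlha15 (67) were in rich bins. More of them were outside: Sox2 (21), Gata4 (52), Gata6 (36), Foxa1 (28), Foxa2 (33) and Foxq1 (28). Among the 15 genes outside were also products of mature cells, such as Gif, the intrinsic factor gene (25), Sst, the somatostatin gene (36), and Hdc, which makes histamine (32). For the squamous forestomach epithelium the count was 11 of 22 (50%), in 7 rich bins. Krt4, Krt5 and Krt6a shared a bin of 104 summits, and Krt13, Krt14 and Krt15 shared a bin of 96. Trp63, a factor of squamous cells, lay outside in a bin of 14.

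Smooth muscle and mesenchyme genes had 12 of 33 (36.4%) in rich bins, among them Des, the filament gene desmin (68), and the forkhead genes Foxf1 and Foxl1 in 1 bin (80). The smooth muscle actin gene Acta2 (31) and the stomach homeobox gene Barx1 (47) were outside, and Tagln (54) just outside. Genes of enteric neurons and glia had 5 of 19 (26.3%), including Sox10 (100) and Nos1 (82) but not Ret (37). Genes of CTCF and cohesin had 9 of 16 (56.2%), and Ctcf itself lay in a bin with 102 summits and 51 coding genes. Imprinted genes had 12 of 44 (27.3%) in 4 bins, and housekeeping genes 11 of 16 (68.8%).

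Known loci divided between the kinds of bin. Among the clusters of Hox genes, which pattern the body axis, HoxB (84 summits in its bin) and HoxC (98) were in rich bins and HoxA (47) and HoxD (24) were not. Of the imprinted domains, H19 and Igf2 (71) and Kcnq1ot1 (74) lay in adjacent rich bins on chromosome 7. Meg3 (37), Peg3 (43), Gnas (44) and Snrpn (7) did not. The Meg3 bin has 3 coding genes and a GC content of 45.7%, and the Snrpn bin has 3 and 37.8%.

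Rich bins were unevenly spread over the autosomes. Chromosome 11 had the highest share, 47 of 118 bins (39.8%), which held 68.1% of its summits. Chromosomes 5 (24.5%), 4 (22.3%) and 17 (22.2%) followed. Chromosome 13 had the lowest share, 5 of 117 (4.27%), then chromosomes 3 (7.74%) and 14 (8.26%). Over the 19 autosomes the rank correlation of the share was 0.797 with coding genes per Mb and 0.848 with GC content, which are themselves related. The rich bins themselves had a median of 63.0 summits on chromosome 13, 65.0 on chromosome 3 and 64.5 on chromosome 14, against 73.0 on chromosome 11, 77.0 on chromosome 5 and 86.5 on chromosome 17. Median signal was higher in rich than in other bins on 7 of the 19.

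**Figure D5:**
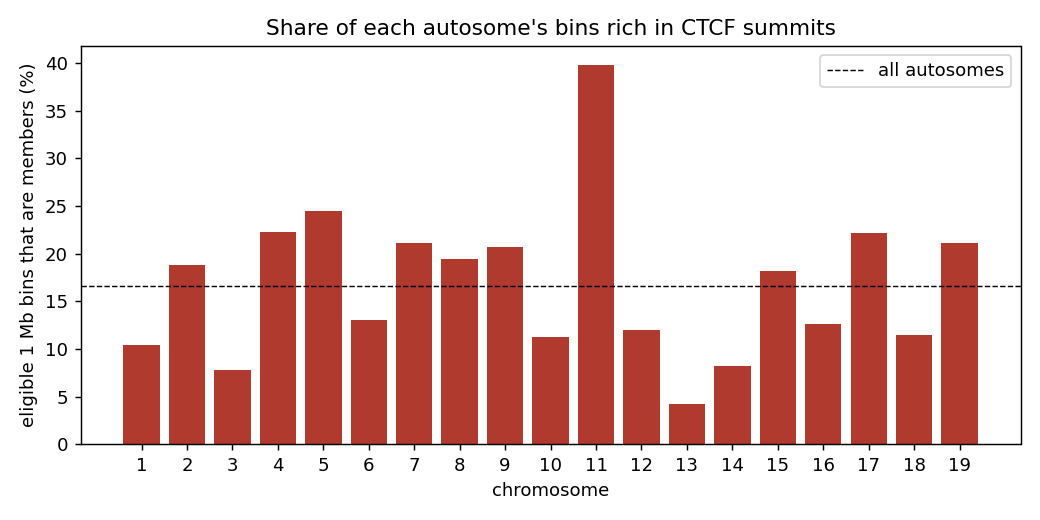
Share of each autosome's eligible 1 Mb bins that are rich (member) bins, in percent, with the share over all autosomes, 16.6%, as a dashed line. Chromosome 11 stands highest at 39.8% and chromosome 13 lowest at 4.27%.

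Rich bins were more frequent toward the distal ends of chromosomes. They made up 37.2% of the 94 bins within 5 Mb of the distal end, 27.8% of those 5 to 20 Mb away, 17.6% of those 20 to 50 Mb away and 12.6% of those farther in. The 394 bins formed 182 runs of neighbours, of which 98 were single bins, and 226 bins were in the 49 runs of 3 or more. The longest was chr15:75000001-86000000, with 11 bins, 870 summits, 265 coding genes and 56 to 119 summits a bin. Next came chr4:132000001-142000000, with 10 bins and 904 summits among 202 coding genes, which is fewer genes and more summits than the longest run. Runs of 9 bins were found at chr2:25000001-34000000 (784 summits), chr11:113000001-122000000 (785) and chr17:24000001-33000000 (760). Promoter shares of these 5 runs were 18.1% to 26.6%, and their median signals were 73.9 to 77.6.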

How the data were processed

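CTCF ChIP-seq peaks of 2 libraries from 1 group, newborn stomach, were analysed. Per the deposited file descriptions, the authors called peaks per replicate and on both together on mm10 against a control, and passed them through IDR to give optimal and conservative lists. For the aligner and peak caller with their versions, and for the IDR cutoff, the entry is: not given in the sources used here. Signal is the value per peak that the authors deposited, not scaled between lists, and was compared only within a list. Summits are the deposited start plus offset. The files hold no read counts, so depth is unknown; the number of peaks limits precision, and intervals are exact (Clopper-Pearson) 95% binomial, for counting error only.

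Bins, GC content and letters were computed from the GRCm38 reference and genes from GENCODE M21, with Python 3.11.15, numpy 2.4.6, pandas 2.3.3, scipy 1.17.1 and matplotlib 3.10.9. Scripts were tested on simulated data. The bins, gene lists and families were chosen with earlier results of these data known, so no pattern is independent support. Bins named are the 10 with most summits, the 5 with fewest coding genes, the 5 other bins with most coding genes, the 5 longest runs and fixed loci, with up to 5 genes each whose starts are nearest a summit. Bins at an extreme of a measure, and the B2-type form, were added after values were seen. There is 1 group and no contrast, so no test was run. Alternatives changed the threshold, bin origin, peak list, promoter width, matching and motif.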

Additional observations from a re-analysis of the deposited data

Results flagged for a closer look

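In bins that the rule on assembly gaps left out, 3 held 55 or more summits, although less of their sequence could carry peaks. They were chr4:130000001-131000000, with 57 summits in 0.827 Mb of sequence and 15 coding genes, chr15:103000001-104000000, with 60 in 0.893 Mb and 17 genes, and chr19:6000001-7000000, with 105 in 0.874 Mb and 46 genes. Promoter shares there were 8.77%, 18.3% and 54.3%. They were looked at because they carry signal outside the bins described above.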

How the results depend on the processing

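Of 94 values under alternatives, 48 moved by no more than the SD of the 2 values from the replicates taken alone, or stayed within 1.5 times for the number of rich bins, which ran from 331 to 478. Taking 50 or more summits gave 17.0 coding genes per bin, 46.0% of coding genes and a signal ratio to other bins of 0.967. Taking 60 or more gave 36.0% of genes and signal ratios of 0.999 to other bins and 0.929 to equal-gene bins. Bins shifted by 0.5 Mb gave, against equal-gene bins, a signal ratio of 0.851 and differences of 1.34 percentage points in promoter share and 4.36 in GC.

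The conservative list gave 38.7% of genes, 42.8% of peaks with motif letters, a signal ratio of 0.996 to other bins and, against equal-gene bins, -1.44 points in promoter share, 0.923 in signal and 3.98 points in GC. Peaks at or above the median signal, with 28 or more per bin, gave 20.9% at promoters, 39.1% of genes, 50.6% with motif letters, signal ratios of 1.06 and 1.04, and equal-gene differences of 0.53 points in promoter share and 4.03 in GC. Counting summits within 300 bp once gave 40.1% of genes and an equal-gene signal ratio of 0.906. Promoters of 500 bp gave 17.1% and an equal-gene difference of -1.02 points, and promoters of 2500 bp gave 34.7% and 0.595. The position weight matrix gave 51.4%.

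Matching on genes of any kind gave 2.12 points in promoter share, 0.903 in signal and 4.47 points in GC. Matching on GC too gave 0.71 and 0.845. Leaving receptors out of the gene number, a choice made after seeing the data, gave -1.76, 0.869 and 3.82.

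With either replicate alone, without replicate 1 or without replicate 2, the ranges were 392 to 400 rich bins, 22.3% to 23.8% at promoters, 18.0 to 19 genes per bin, 40.3% to 41.0% of genes and 41.6% to 42.2% with motif letters. The signal ratio to other bins was 0.965 to 0.978. Against equal-gene bins the ranges were -1.59 to -0.955 points in promoter share, 0.907 to 0.908 in signal and 4.08 to 4.13 points in GC. The causes of these shifts were not tested. No paired analysis was possible because there is 1 group and no test. Depth is unknown, so how many weaker sites were missed in either kind of bin could not be judged.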

Other observations

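One rich bin combined many summits with few motif letters at them. In chr14:25000001-26000000, which holds Ppif, a mitochondrial cyclophilin gene, Zmiz1, a transcriptional coregulator gene, and 6 other coding genes, 15 of 85 summits (17.6%) had the letters, 4 were at coding promoters and none was B2-type. Its DNA held 227 motif letters per Mb, above the rich-bin median of 217, and its median signal was 49.8. The replicates alone gave 73 and 77 peaks. It was picked after its values were seen.

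Further bins stood out for genes of any kind. The bin chr12:113000001-114000000, at the immunoglobulin heavy chain locus, had 107 genes of which 10 are coding under the annotation used, and 55 summits, the lowest number of any rich bin. At the other end, chr16:34000001-35000000 had 60 summits among 7 genes of any kind, including Mylk, a smooth muscle myosin kinase gene, and Kalrn.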
